A study of Homo sapiens with 54 samples.

Results

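RH4 cells that had received a control vector were set against RH4 cells given only solvent, using 6 of the 54 samples of the series. The vector control group held 3 libraries, taken from cells with a scrambled shRNA at 48 h, cells with a scrambled shRNA at 72 h, and cells with a negative control CRISPRi construct at 7 days. The solvent group held 3 libraries of cells kept in DMSO for 24 h, called cultures 1, 3 and 4 after their labels. All 6 came from RH4, a long-established cell line of fusion-positive rhabdomyosarcoma (FP-RMS), a childhood cancer with features of muscle, grown in DMEM with serum. The labels give the genotype as wt for the shRNA and DMSO libraries and as control knockdown for the CRISPRi library. They give total RNA as the molecule for the 48 h shRNA library and polyA RNA for the other 5. CRISPRi cells carry dCas9-KRAB, a Cas9 without cutting activity joined to a repressor domain, delivered by lentivirus and kept by puromycin selection. Each vector control was a single library, and nothing in the labels says whether libraries of one group came from separate cultures, so spread between them may be partly technical. Another 3 DMSO libraries (1 of a compound screen and 2 at 6 h) are given beside the 6 where they help.

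A scrambled shRNA enters the RNA interference machinery without a matching transcript, and a negative control guide brings dCas9-KRAB to no intended promoter. Both are used so that effects of virus, selection and vector can be separated from effects of a knockdown. FP-RMS cells express the PAX3-FOXO1 fusion transcription factor and a myogenic program led by MYOD1 and MYOG without completing muscle differentiation. The comparison asks what a control vector changes in RH4 cells by itself, and what stays constant enough to serve as the RH4 baseline.

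The files hold TPM, a unit of expression corrected for transcript length and library total, for 18710 genes common to all 6 libraries, with identical gene coordinates in each. As a share of the fixed total that TPM of a whole library add up to, these genes held 52.7% in the 48 h shRNA library and 27.8% in the 72 h shRNA library, against 96.3% in the CRISPRi library and 96.4 to 96.6% in the DMSO libraries. The 72 h file lists these genes alone, so its share assumes that the genes it leaves out held the rest of the total, and the sources used here do not say whether genes were removed after TPM were made. As deposited, the median gene was 0.785 lower in the vector control group on the log2 scale. After each library was rescaled to the same TPM total over the shared genes, the median difference was 0.02. Levels below are rescaled TPM unless called deposited, and log2 differences are of TPM + 1, which understates changes of low genes.

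The 2 shRNA libraries stood apart from the other 4 before any test. Over 11693 genes, Pearson's r of log2 levels was 0.907 between the shRNA libraries and 0.778 to 0.818 between either of them and a DMSO library. The CRISPRi library reached 0.963 to 0.983 with the DMSO libraries, where the DMSO libraries reached 0.977 to 0.979 among themselves. These correlations run across genes, which are not independent replicates. On the first principal component of all 9 libraries, computed without histone symbols, the shRNA libraries lay at -84.3 and -89.5, the CRISPRi library at 9.6 and the 6 DMSO libraries at 19.3 to 36.6. Results are accordingly given for the 3 vector controls together, for the shRNA libraries and for the CRISPRi library. The shRNA and CRISPRi comparisons share the same 3 DMSO libraries. They were split by vector, a label, but the split was chosen after the values had been seen. Vector and time cannot be told apart in the shRNA libraries, nor can the labelled RNA class in the 48 h library, because the DMSO libraries share none of these with the 48 h library and only the labelled RNA class with the 72 h library.

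Transcripts of replication-dependent histone genes carried the largest differences. These genes supply histones during DNA replication, and their mRNAs end in a conserved stem-loop instead of a polyA tail. The stem-loop sequences below, from transcripts near the top of the list and from a histone H4 gene with another stem, show that shared end. HIST2H2BF, which had the largest difference, had no match in the window searched. Capitals mark the match to the stem-loop motif, whose letters over all 59 matches read GGNNCTTTTNAGNGCC, with N for any base. The search took any base at position 14 of it as well. Start and end are on GRCh37, and the strand is that of the gene.
HIST2H3D, chr1:149784778-149784803, minus strand: ctaaaGGCTCTTTTCAGAGCCactgc
HIST2H2AB, chr1:149859018-149859043, minus strand: ccaaaGGCTCTTTTAAGAGCCaccaa
HIST3H2BB, chr1:228646234-228646259, plus strand: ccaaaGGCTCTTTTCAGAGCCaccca
HIST1H1B, chr6:27834570-27834595, minus strand: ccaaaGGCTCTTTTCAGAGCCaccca
HIST1H4C, chr6:26104540-26104565, plus strand: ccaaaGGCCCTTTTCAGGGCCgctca

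The search covered the last 150 bases of each gene and the 50 bases after it, on both strands. It found the motif in 59 of 69 HIST symbols (85.5%) and in 0 of 18554 other genes, or 0.317% of all 18623 genes searched. On the opposite strand it was found in 0 genes. The exact form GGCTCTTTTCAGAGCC made up 37 of the 59 matches, and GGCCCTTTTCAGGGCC, the form of HIST1H4C, made up 9. A match describes these letters only. Of the HIST symbols with the motif, 54 were tested in the shRNA libraries against DMSO. Of these, 48 were higher, where 10.8% of all genes tested were higher, and the median log2 difference was 8.62. HIST symbols without the motif in this window had 9 of 10 higher and a median of 7.24. Some HIST symbols reached the mean of 1 TPM through the shRNA libraries alone. HIST1H2AJ, for example, stood at 14.2 and 258 there and was listed at 0 in the CRISPRi and DMSO libraries. For such genes the filter itself required high shRNA values, so these counts describe the libraries and are not a test.

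Together, 70 HIST symbols took 13.58% of shared-gene TPM in the 48 h shRNA library and 13.66% in the 72 h library. The CRISPRi library had 0.0224%, and the 3 DMSO libraries at 24 h had 0.0255 to 0.0271%. HIST1H1B, a linker histone, stood at 4196 and 3726 in the 48 h and 72 h shRNA libraries, was listed at 0 in the CRISPRi library, and stood at 0.838, 0.405 and 0.373 in DMSO. HIST2H2BF, a core H2B gene, stood at 8733 and 8500 in the shRNA libraries, 3.65 in the CRISPRi library, and 2.47, 0.291 and 0.725 in DMSO. Both shRNA values lay far above the other 4, while the CRISPRi value lay near DMSO. H1F0, a replacement linker histone, was less extreme, at 317 and 795 against 210 in CRISPRi and 180, 184 and 110 in DMSO (adjusted p = 0.017 for the shRNA libraries by limma). HIST2H3A and HIST2H3C, HIST2H4A and HIST2H4B, and HIST2H2AA3 and HIST2H2AA4 are near-identical copies whose values cannot be assigned to one copy.

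**Figure D1:**
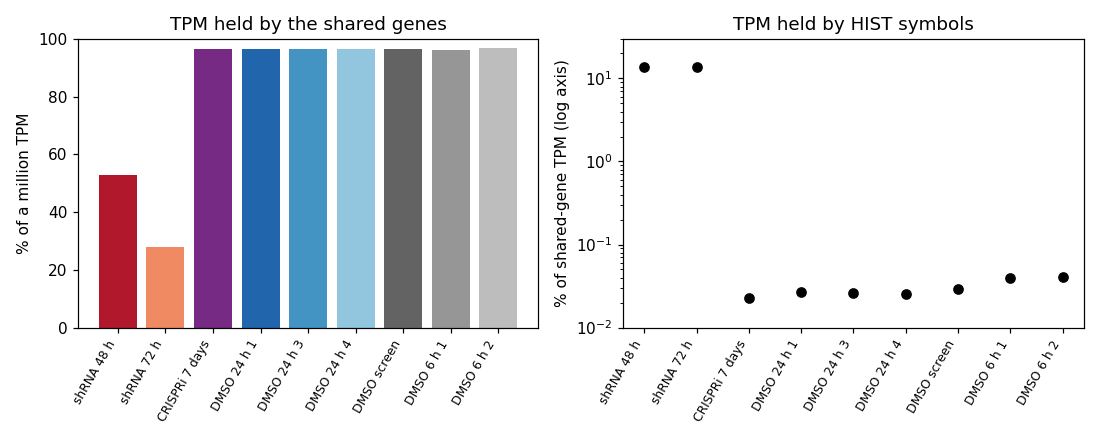
Left, the percent of the fixed TPM total of a whole library held by the 18710 shared genes in each of 9 libraries; right, the percent of that TPM held by 70 HIST symbols, on a log axis. The 2 shRNA libraries hold 52.7% and 27.8% in shared genes, and 13.58% and 13.66% of it in HIST symbols, apart from the 7 others.

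The 48 h file lists 27043 genes. Structured non-coding RNAs, chosen as a list of 24, took 20.74% of its TPM, against 0.0054 to 0.0170% in the CRISPRi and DMSO 24 h libraries. RPPH1, the RNA of RNase P, stood at 118041 deposited TPM there, at 28.4 in the CRISPRi library and at 6.57 to 25.6 in DMSO. RMRP, the RNA of RNase MRP, stood at 80193 there, at 118 in the CRISPRi library and at 3.92 to 40.8 in DMSO. The next in rank were small nucleolar RNAs, led by SNORA63 at 56964 deposited TPM. The 72 h file lists 18710 genes, and its structured RNAs were not analysed here. The histone share of the 72 h library, which is labelled polyA RNA, was close to that of the library labelled total RNA. Whether RNA selection had a part in the differences reported here was not tested.

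With all 3 vector controls against DMSO on deposited TPM, limma called 121 genes higher (1.07% of 11287 tested) and 355 lower (3.15%) at an adjusted p under 0.05. This was the planned comparison, and it rested on scale and on single libraries. After rescaling, 0 genes were called higher and 0 lower of 11693, with a smallest adjusted p of 0.259 and 2051 genes at an unadjusted p under 0.05. Without the 72 h shRNA library 0 and 0 genes were called on deposited TPM, without the 48 h library 52 and 19, and without the CRISPRi library 385 and 6762. Without DMSO culture 1 the counts were 58 and 71, without culture 3 they were 71 and 108, and without culture 4 they were 69 and 154. The limma fit found no spread of variances between genes beyond its trend, so each gene was judged by the trend and not by its own replicates. An exact permutation test of a single gene with 3 against 3 libraries cannot go below p = 0.10.

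Adjusted p in this paragraph come from that planned limma fit on deposited TPM. Levels are rescaled TPM, on which the same comparison called 0 genes. The 10 genes with the largest increases among those called were all HIST symbols, headed by HIST2H2BF (log2 7.56 ± 0.718 SE, adjusted p = 1.37e-22) and HIST1H4J (adjusted p = 8.07e-27). HIST1H4J was at 2848 and 3358 in the shRNA libraries, 2.42 in the CRISPRi library and listed at 0 in all DMSO libraries. The 10 with the largest decreases were VAMP5, ANXA1, LAPTM5, AXL, GREM1, S100A16, ELN, NNMT, THBS1 and LRRC17. They hold membrane proteins (the SNARE-like VAMP5, the receptor tyrosine kinase AXL), a BMP antagonist (GREM1) and matrix proteins (elastin ELN, thrombospondin THBS1). AXL stood at 0.0949 and 0.719 in the 48 h and 72 h shRNA libraries, 80.9 in the CRISPRi library, and 256, 132 and 140 in DMSO (adjusted p = 3.81e-10). VAMP5 was listed at 0 in both shRNA libraries and stood at 137 in the CRISPRi library and 217, 177 and 194 in DMSO (adjusted p = 4.04e-10). THBS1 stood at 0.209 and 0.396, at 37.9, and at 119, 70.1 and 48.0 in the same order (adjusted p = 1.76e-08). For AXL, VAMP5 and THBS1 the CRISPRi value lay below all 3 DMSO values, and the shRNA values lay far below that. For ELN the CRISPRi value of 84.0 fell within the DMSO range of 58.9 to 338, while the shRNA values were 0.342 and 2.30.

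On rescaled values, all 3 vector controls lay above all 3 DMSO libraries for 1454 genes (12.4% of 11693) and below them for 922 (7.89%).

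**Figure D2:**
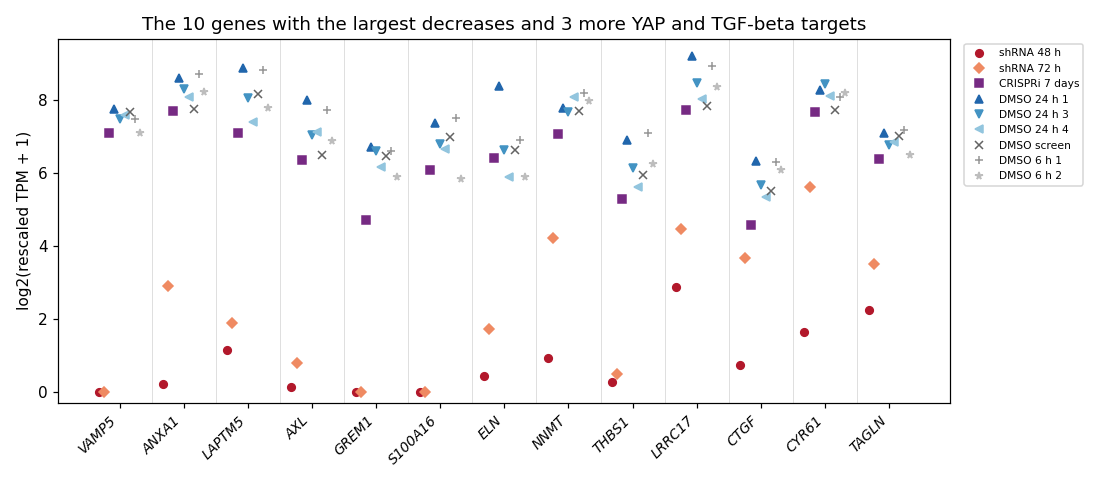
Levels as log2(rescaled TPM + 1) of the 10 genes with the largest decreases and of 3 more YAP and TGF-beta targets, with 1 point per library for 9 libraries. The shRNA libraries (circles and diamonds) lie lowest for each gene, and VAMP5, GREM1 and S100A16 are listed at 0 in both.

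The 2 shRNA libraries against the 3 DMSO libraries, on rescaled values, gave 1266 genes higher (10.8% of 11710 tested) and 1404 lower (12%) by limma. The median log2 difference over all genes was -0.03. On deposited TPM the split was 385 higher and 6762 lower, with a median of -1.25, so a direction is stated below relative to the rescaled total. Of the 1266 genes higher, 923 kept that sign on deposited TPM and 372 were called. Of the 1404 lower, 1402 were called lower there too. The shared genes hold less of the deposited total in the shRNA libraries, so this was largely set by the scale and is no check of the decreases. Leaving out DMSO culture 1 gave 767 and 765 genes, leaving out culture 3 gave 983 and 603, leaving out culture 4 gave 611 and 846, and leaving out the 72 h library gave 840 and 1416. With 1 library left in the shRNA arm, that library was assumed to vary like the DMSO libraries.

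YAP and TGF-beta targets, which respond to cell spreading, tension and TGF-beta signaling, were lower as a group. Of 16 tested, 9 were lower and 0 higher, with a median of -2.36, where 12% of all genes were lower and 10.8% higher. Leaving out 1 library gave 8 to 10 lower and 0 higher. The connective tissue growth factor gene CTGF stood at 0.683 and 11.8 in the 48 h and 72 h libraries, at 22.9 in the CRISPRi library, and at 80.4, 50.2 and 39.8 in DMSO (adjusted p = 0.0065). Its family member CYR61 stood at 2.14 and 48.7, at 204, and at 313, 350 and 278 in the same order (adjusted p = 0.0053). All shRNA values of both genes lay below all the others, and the 48 h value was the lowest. TAGLN, a smooth muscle actin-binding protein, fell by 4.05 on the log2 scale (SE 0.387, adjusted p = 0.00015). ID1 and ID3, targets of BMP signaling on the same list, did not pass, at 67.0 and 99.7 for ID1 against 80.0 to 126 in DMSO. In the CRISPRi library the median of the list was -0.51, and the DMSO libraries had medians of 0.18, -0.01 and -0.26.

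Matrix genes divided between the 2 shRNA libraries. Of 30 tested, 7 were lower and 1 higher, where 12% of all genes were lower and 10.8% higher. With the 48 h library alone 17 were lower and 1 higher, with the 72 h library alone 6 lower and 5 higher, and without culture 3 it was 4 lower. The median was -1.49 in the 48 h library but 0.20 in the 72 h library. FN1, fibronectin, stood at 125 in the 48 h library, 2175 in the 72 h library, 1516 in the CRISPRi library and 2099, 2055 and 1010 in DMSO. COL3A1, a fibrillar collagen, stood at 173 and 1035 in the shRNA libraries, 1299 in CRISPRi and 1016, 862 and 638 in DMSO. For both genes the 48 h value alone lay outside the others. LOXL2, a collagen cross-linking enzyme, was low in both at 16.5 and 71.3, against 336 in CRISPRi and 411, 347 and 300 in DMSO (adjusted p = 0.0022). The proteoglycan DCN moved the other way, at 8.08 and 9.17 against 0.913 in CRISPRi and 0.756, 0.913 and 0.933 in DMSO (adjusted p = 0.0015).

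PAX3-FOXO1 target genes were higher more often than lower. Of 38 tested, 17 were higher and 4 lower in the shRNA libraries, where 10.8% of all genes were higher and 12% lower. The median over the targets was 0.78, and the 4 lower were near the share of all genes. On deposited TPM 5 targets were higher and 11 lower, with a median of -0.50 beside -1.25 for all genes. Of all 11245 genes tested on that scale, 385 were higher and 6762 lower. Without culture 4 the rescaled count was 11 higher, and without any other single library 13 to 17. MYCN, an oncogenic transcription factor, stood at 108 and 99.99 in the shRNA libraries, 36.3 in the CRISPRi library and 37.2, 37.9 and 30.9 in DMSO (log2 1.53 ± 0.279 SE, adjusted p = 0.0046, and 0.22 on deposited TPM). PIPOX, a peroxisomal oxidase, stood at 115 and 113, at 28.5, and at 22.6, 22.8 and 18.6 in the same order (adjusted p = 0.00056). NOS1, neuronal nitric oxide synthase, stood at 51.4 and 56.2, at 6.53, and at 0.538, 2.61 and 1.49 (adjusted p = 9.16e-05). It was also called higher on deposited TPM, at log2 3.20. In these 3 genes both shRNA values lay well above all others, and for PIPOX and NOS1 the CRISPRi value also lay above DMSO. CDH3, TFAP2B, OLIG2, IGF1R and CHD7 were among the others called higher. FGFR4, a receptor the fusion drives, stood at 398 and 564, at 318, and at 253, 264 and 341, and did not pass (adjusted p = 0.093). Of the 4 targets lower, GREM1 was listed at 0 in both shRNA libraries and stood at 25.5 in CRISPRi and 105, 97.1 and 70.5 in DMSO. MYL1, a fast myosin light chain, stood at 15.5 and 9.71 against 71.8 in CRISPRi and 128, 54.2 and 120 in DMSO (adjusted p = 0.0017). CSRP1 and QDPR were the remaining pair. In the CRISPRi library the median over the targets was 0.23, and over all genes 0.10.

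Growth factor receptors and Notch genes showed the same direction, beside 10.8% of all genes higher and 12% lower. Of 19 receptor and ligand genes tested, 7 were higher and 0 lower (median 0.77), and of 15 Notch and ID genes 5 were higher and 0 lower (median 0.56). On deposited TPM these counts were 4 higher and 5 lower of 18 tested, and 2 higher and 5 lower of 14 tested. Of all 11245 genes tested on that scale, 385 were higher and 6762 lower. Without culture 4 the receptor count was 4 higher, and with the 48 h library alone it was 5 higher and 3 lower. ERBB3, a receptor of the EGFR family, stood at 62.5 and 101 against 9.71 in CRISPRi and 9.41, 16.4 and 17.2 in DMSO (adjusted p = 0.0019). NOTCH1 stood at 56.6 and 97.5 against 12.2 in CRISPRi and 5.24, 10.7 and 7.40 in DMSO (adjusted p = 0.00060). INSR, the insulin receptor, was at 7.12 and 18.1 in the shRNA libraries, was listed at 0 in the CRISPRi library and in 2 DMSO libraries, and was at 0.0208 in the other. Since nearly every cell uses INSR, its 0 in the other libraries is reported only as listed.

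Lineage genes were called higher about as often as all genes. Of 25 tested, 3 were higher and 1 lower in the shRNA libraries, where 10.8% of all genes were higher and 12% lower, and the median was 0.11. Leaving out 1 library gave 1 to 5 higher and 0 to 5 lower, the most in each direction with a single shRNA library. In the planned comparison limma called 0 of 25, where 1.07% of all genes were higher and 3.15% lower. On deposited TPM the shRNA counts were 0 higher and 12 lower of 24 tested, with a median of -1.11. Of all 11245 genes tested on that scale, 385 were higher and 6762 lower, with a median of -1.25. MYOD1, which commits cells to the muscle lineage, stood at 242 in the 48 h library, 174 in the 72 h library, 291 in the CRISPRi library and 199, 301 and 299 in DMSO. MYOG, which drives later differentiation, stood at 987 and 294, at 461, and at 306, 366 and 404 in the same order. DES, the muscle intermediate filament gene desmin, stood at 563 and 217, at 375, and at 373, 344 and 413. Vector control and DMSO values overlapped for MYOD1 and DES, and the 48 h library was the highest for MYOG and DES. SOX8 stood at 306 and 245, at 299, and at 204, 289 and 276, and FOXO1 at 46.5 and 60.1, at 36.3, and at 45.01, 43.5 and 29.3. PAX3, which counts reads of the fusion's 5′ part together with those of the intact gene, was higher at 38.5 and 87.9 against 17.3 in CRISPRi and 24.3, 21.1 and 18.0 in DMSO (adjusted p = 0.024). EYA2, a cofactor of homeobox transcription factors, was higher at 41.9 and 31.0 against 11.5 and 6.71 to 11.9 (adjusted p = 0.0038). TMEM8C, which encodes the fusogen myomaker, was called higher (adjusted p = 0.036) on values of 28.6 and 77.2 against 11.5 to 20.7 in DMSO. PAX7 was lower, at 0.0190 and 0.0360 against 2.76 in CRISPRi and 1.53 to 1.92 in DMSO (adjusted p = 0.024). MSTN, the muscle growth inhibitor myostatin, was low in the 48 h library alone, at 30.3 against 288 in the 72 h library, 369 in CRISPRi and 231 to 362 in DMSO.

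**Figure D3:**
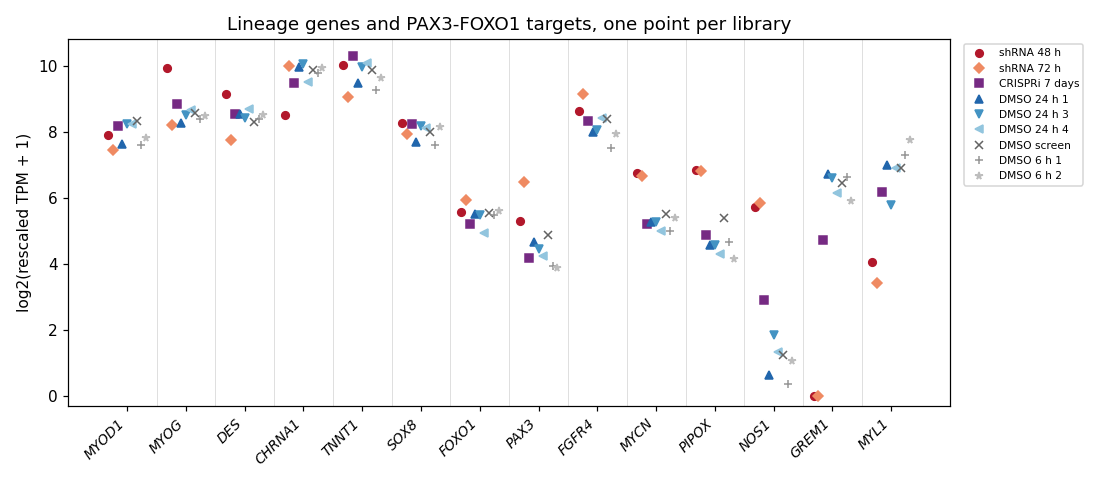
Levels as log2(rescaled TPM + 1) of 8 lineage genes (MYOD1 to PAX3) and 6 PAX3-FOXO1 targets (FGFR4 to MYL1), with 1 point per library for 9 libraries. MYOD1, DES and SOX8 overlap between vector control and DMSO libraries, while MYCN, PIPOX and NOS1 are highest and GREM1 and MYL1 lowest in the shRNA libraries.

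Contractile genes moved in both directions, with 6 of 23 higher and 6 lower in the shRNA libraries, where 10.8% of all genes were higher and 12% lower. Without culture 4 these counts were 1 and 3, and without culture 3 they were 5 and 3. Lower were the thin and thick filament genes ACTC1, MYL1, MYLPF, TNNC1 and TNNI1 together with the muscle enolase ENO3. TNNC1, slow troponin C, stood at 0.835 and 2.45 against 6.97 in CRISPRi and 16.7, 14.8 and 13.2 in DMSO (adjusted p = 0.0013). Higher were TTN, NEB, MYH8, MYBPC2, CASQ2 and KLHL40. CASQ2, a calcium store protein, stood at 63.1 and 672 against 24.4 in CRISPRi and 8.97, 20.04 and 15.01 in DMSO (adjusted p = 0.0085). Its 72 h value was more than 10 times the 48 h value. Of 8 muscle markers used to check the label, MYOD1, MYOG, DES, CHRNA1 and TNNT1 had no value under 174. Of the others, MYF5 did not reach a mean of 1 TPM, CDH15 did not pass, and ACTC1 was lower in the shRNA libraries (log2 -1.76). Markers of endothelial and epithelial cells did not reach a mean of 1 TPM, with 0 of 6 and 0 of 7 tested. Of 8 immune markers CD68 alone was tested, and it was lower at 0.645 and 1.11 against 1.90 in CRISPRi and 11.2, 4.98 and 2.67 in DMSO (adjusted p = 0.028). Among 5 fibroblast markers tested DCN, under 1 TPM in CRISPRi and DMSO, and PDGFRA were higher. COL1A1, COL1A2 and COL3A1 went the other way without passing (log2 -0.36, -0.90 and -0.96), and the median of the 5 was -0.36. Among 2 neural markers OLIG2, which is also a fusion target, was higher. THY1 and STMN2 were listed at 0 in all 6 libraries. Their part in the results was not tested.

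A minority of interferon and inflammatory genes were called lower, and DMSO culture 1 stood high for interferon genes. Of 26 interferon-stimulated genes tested, 6 were lower and 0 higher in the shRNA libraries (median -1.07), where 12% of all genes were lower. Without culture 1 this was 3 lower of 20 with a median of -0.31, without culture 3 it was 1 lower, and with the 48 h library alone 1 lower. The median of the list was 1.15 in DMSO culture 1, against -0.37 and -0.75 in cultures 3 and 4, and -0.55 in the CRISPRi library. ISG15, a ubiquitin-like interferon product, stood at 13.3 and 1.295 in the shRNA libraries, 18.6 in CRISPRi and 153, 23.4 and 31.5 in DMSO (adjusted p = 0.028). Both shRNA values of ISG15 were also below those of cultures 3 and 4. Of 12 NF-kB outputs and cytokine genes 5 were lower and 0 higher (median -1.01), namely NFKB1, TNFAIP3, CXCL8, CCL2 and TRAF1. Leaving out 1 library gave 0 to 3 lower, with 0 from the 72 h library alone. MYD88, an adaptor of Toll-like receptors, stood at 0.114 and 0.252 against 21.2 in CRISPRi and 25.6, 23.2 and 20.5 in DMSO (adjusted p = 2.26e-05). TRIM25, a ligase in RNA sensing, stood at 0.0190 and 0.324 against 11.4 in CRISPRi and 24.9, 15.5 and 10.4 in DMSO. Class I antigen presentation genes were split, with 2 higher and 3 lower of 9 tested, where 10.8% of all genes were higher and 12% lower. B2M, TAPBP and ERAP1 were lower. HLA-B, a heavy chain gene, was higher on rescaled and on deposited TPM. It stood at 25.6 and 127 against 3.06 in CRISPRi and 1.53, 3.34 and 2.62 in DMSO, and B2M, the light chain, stood at 90.2 and 410 against 790 and 1696, 1240 and 995.

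Genes of the vectors' own pathways were called higher about as often as all genes, on small counts. Of 13 genes of the RNA interference machinery, 2 were higher and 0 lower in the shRNA libraries, with a median of 0.21, where 10.8% of all genes were higher and the median over all genes was -0.03. AGO2, the slicing Argonaute, stood at 54.0 and 47.4 against 23.8 in CRISPRi and 24.1, 27.9 and 24.6 in DMSO (adjusted p = 0.036), though its sign turned on deposited TPM (log2 -0.33). TNRC6B, a silencing partner of Argonaute, was the other (adjusted p = 0.0087). DICER1 overlapped, at 89.2 and 38.1 against 46.2 to 83.7. Of 17 genes that encode KRAB partners and H3K9 writers, ATF7IP alone was called, as higher, in the shRNA libraries, beside the same 10.8% of all genes. In the CRISPRi library TRIM28, the co-repressor that KRAB domains bind, stood at 490 against 313, 352 and 380 in DMSO, and the median of the list was 0.18.

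Stress and metabolic lists separated the 48 h from the 72 h library. ATF4 and amino acid response genes had a median of -0.20 at 48 h and 1.11 at 72 h, and 5 of 33 were higher and 0 lower, a share higher that was close to the 10.8% of all genes. With the 48 h library alone 3 were higher and 3 lower, with the 72 h library alone 17 and 0, and without culture 4 the count was 1 and 0. TRIB3, a pseudokinase induced by ATF4, stood at 18.5 at 48 h and 467 at 72 h, against 29.2 in CRISPRi and 22.8, 26.7 and 26.4 in DMSO. INHBE, an activin subunit, stood at 6.93 and 377, against 20.2 and 13.1 to 20.3. Neither passed the test, and both lay below all DMSO values at 48 h and above them at 72 h. For the lists that follow, 12% of all genes were lower. Proteasome genes had medians of 0.07 and -1.08, with 7 of 31 lower. With the 72 h library alone 19 were lower, and without a single DMSO culture 1 to 3. Oxidative phosphorylation genes had -0.11 and -0.86, with 7 of 36 lower, which became 15 with the 72 h library alone and 2 to 5 without a DMSO culture. NRF2 targets, which protect against oxidants, were lower in both, with 7 of 17 lower and medians of -0.74 and -0.99. FTL, the ferritin light chain, stood at 1478 and 1880 against 4130 in CRISPRi and 4042, 5430 and 4848 in DMSO (adjusted p = 0.0036). Time, library and labelled RNA class differ together between the 2 shRNA libraries and cannot be told apart.

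**Figure D4:**
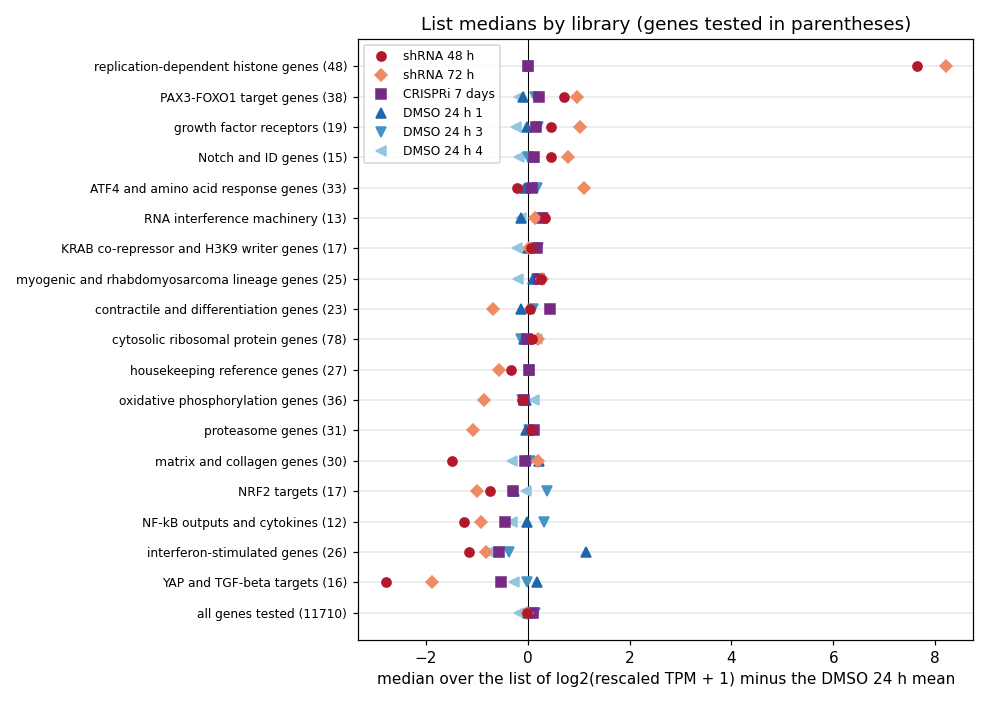
Median over each gene list of log2(rescaled TPM + 1) minus the mean of the 3 DMSO libraries at 24 h, with 1 point per library and the number of genes tested in parentheses. Histone genes have medians of 7.65 and 8.2 in the shRNA libraries, YAP and TGF-beta targets have -2.78 and -1.87, and the CRISPRi library (squares) stays between -0.55 and 0.45 in every list drawn.

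A small set of genes was near absent in the shRNA libraries and present in all others, or the reverse. Both shRNA libraries had under 1 TPM and all 7 other libraries over 10 for 12 genes, namely AXL, DKK1, GREM1, IFI44, MYD88, PLA2G16, PSG1, S100A16, SFXN3, THBS1, TRIM25 and VAMP5. The reverse held for 29 genes, 8 of them HIST symbols. Among the other 21 were the transcription factor SOX2 (10.6 and 16.5 in the shRNA libraries, 0.145 in CRISPRi and listed at 0 in DMSO) and the adhesion molecule CADM1 (20.2 and 12.8, listed at 0 in CRISPRi, and at most 0.0414 in DMSO). LY6E and TSPO, which many cell types express, stood at 19.6 and 18.6 and at 13.5 and 16.6 in the shRNA libraries, and were listed at 0 in CRISPRi and in 3 and 2 of the DMSO libraries. For the CRISPRi library against all 6 DMSO libraries, 0 genes showed either pattern.

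The CRISPRi library alone gave 0 genes higher and 0 lower than the 3 DMSO libraries of 11263 tested by limma, with a smallest adjusted p of 0.31 and 442 genes at an unadjusted p under 0.05. With 1 library in that arm, it was assumed to vary like the DMSO libraries. A lack of calls there does not show a lack of effect of the vector. In the CRISPRi library 264 genes were at least 2-fold above the DMSO mean and 94 at least 2-fold below (3.06% of 11693). The DMSO libraries themselves, each against the mean of the other 2, had 1.64%, 4.07% and 3.7%, and the 3 further DMSO libraries had 1.2 to 1.71%. The CRISPRi share thus lay within the range of the 3 DMSO libraries at 24 h, which were set against a mean of 2. It lay above the shares of the 3 further DMSO libraries, which were set against the same mean of 3. On deposited TPM the CRISPRi count was 333 genes, and it was 209 without DMSO culture 1 and 695 without culture 3. The shRNA libraries had 28.2% at 48 h (1531 higher and 1761 lower) and 32.5% at 72 h (1999 and 1800).

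PSG1, a pregnancy-specific glycoprotein, stood furthest above the other 5 libraries in the CRISPRi library, at 209 against 65.4, 52.0 and 48.7 in DMSO, and was listed at 0 and 0.683 in the shRNA libraries. Its level also varied among the further DMSO libraries, from 14.1 to 68.1. Its relative PSG4 stood at 3.49 in CRISPRi and at most 0.591 in DMSO. Furthest below the others were AMACR, a peroxisomal racemase, at 0.623 against 4.56 to 7.35 in DMSO, and RGS3, a regulator of G protein signaling, at 6.02 against 13.9 to 15.0. These are single values with no test.

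**Figure D5:**
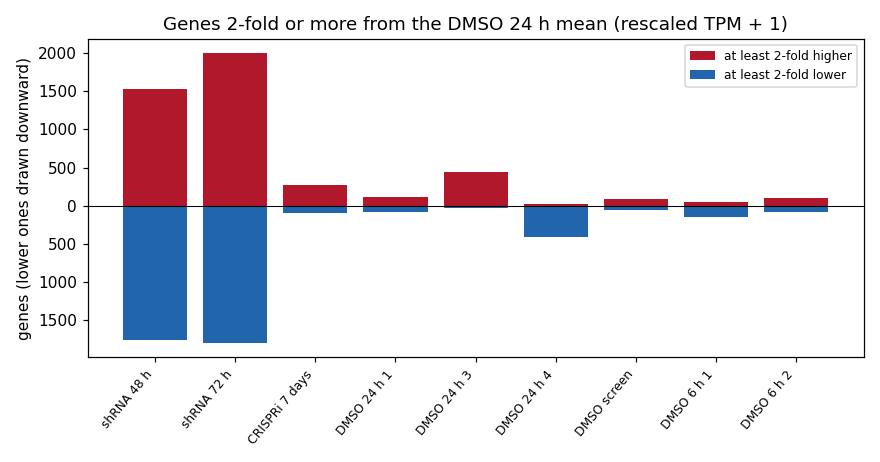
Number of genes at least 2-fold higher (upward) or lower (downward) than the mean of the DMSO libraries at 24 h, on rescaled TPM + 1, in each of 9 libraries; a DMSO 24 h library is set against the other 2. The shRNA libraries have 3292 and 3799 such genes of 11693, the CRISPRi library 358 and the DMSO libraries 140 to 476.

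What stayed constant across all 6 libraries was a minority of genes. On deposited TPM, 708 of 11287 genes (6.27%) kept their highest and lowest library within 2-fold. Rescaled, 3855 of 11693 (33.0%) did, and 896 (7.66%) stayed within 1.5-fold. The same limit of 2-fold held for 87.8% of genes over the 3 DMSO libraries, 81.8% with the CRISPRi library added, 79.6% over the 2 shRNA libraries and 75.6% over 6 DMSO libraries. Over all 9 libraries 26.6% stayed within 2-fold.

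Among 1574 abundant genes, which averaged 100 TPM or more, 147 (9.34%) stayed within 1.5-fold over the 6 libraries. The 10 with the smallest range, on rescaled values, were EFTUD2, BOD1, AIMP2, RPL3, DDB1, MRPL44, NACA, RPS7, EIF4A1 and TIMM23, which spanned 1.16- to 1.24-fold. EFTUD2, a GTPase of the spliceosome, stood at 125, 107, 121, 121, 110 and 121 in the 48 h, 72 h, CRISPRi and 3 DMSO libraries. DDB1, an adaptor of a ubiquitin ligase, stood at 159, 162, 166, 156, 138 and 151 in the same order. Most of the 10 serve splicing, translation, mitochondrial import or protein turnover. On deposited TPM another 10 genes had the smallest range, headed by IARS, whose rescaled levels ran from 126 to 353, so the choice of a constant gene depends on the scale.

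The most abundant transcripts were mainly ribosomal. RPS27 stood at 12070 and 14890 in the shRNA libraries, 11080 in CRISPRi and 9719, 9899 and 11620 in DMSO. EEF1A1, the translation elongation factor, stood at 10040 and 10420, at 7601, and at 7835, 6998 and 8560. Of 78 cytosolic ribosomal protein genes, 2 were higher and 4 lower in the shRNA libraries, where 10.8% of all genes were higher and 12% lower. The median over these ribosomal genes was 0.14. The 2 higher were RPL21 (log2 4.32) and RPL36 (0.979), and the 4 lower were RPS16 (-1.98), RPL10 (-1.49), RPL28 (-1.27) and RPL39 (-1.04). Not all of the 10 most abundant were steady. TMSB10, an actin-sequestering thymosin, stood at 2053 and 2538 against 8717 in CRISPRi and 9164, 7827 and 9814 in DMSO (adjusted p = 0.00079 by limma). RPL39 was also lower, at 5824 and 6175 against 11570 in CRISPRi and 12070, 11170 and 13820 in DMSO (adjusted p = 0.0126 by limma). Common reference genes were not uniformly constant. Of 27 housekeeping genes 9 were lower and 0 higher in the shRNA libraries, with a median of -0.38, beside the same 12% of all genes lower. Without culture 3 these were 3 lower, and without culture 1 they were 5. HPRT1 stood at 18.4 and 6.08 against 98.5 in CRISPRi and 147, 129 and 87.2 in DMSO (adjusted p = 0.00098), while RPLP0 stood at 3348 and 4230 against 3682 and 3641, 2939 and 4003.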

How the data were processed

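RNA-seq was analysed from 9 RH4 libraries. The authors deposited TPM per gene, made with STAR alignment to hg19 and RSEM quantification according to the study's methods. TPM keep no depth, so the depth of each library is unknown here. The 72 h shRNA file and 1 file of DMSO at 6 h list 18710 genes and the others 27043, and mitochondrial genes are listed in none. Groups came from the sample labels. Genes averaging 1 TPM or more were compared on log2(TPM + 1) with limma 3.58.1 in R 4.3.3 with a mean-variance trend, two-sided, at a Benjamini-Hochberg adjusted p under 0.05. Rescaled TPM are deposited TPM scaled so that the shared genes of each library sum to the same total of 1000000. Code was tested on simulated data with the spread of the DMSO libraries. With 2 shRNA libraries it recovered 18 of 100 genes changed 2-fold and 65 of 100 changed 4-fold. With 3 vector control libraries these were 33 and 87. False calls were 4 with the shRNA libraries and 7 with the vector controls. The simulated vector libraries varied like DMSO libraries, unlike the mixed vector controls, so the recoveries of 33 and 87 do not describe that comparison. The histone motif was searched on the GRCh37 sequence in python 3.11.15, with gene ends as in the files. The 44 gene lists came from general knowledge, and they and the members were chosen with earlier results of these data known. Genes named were the 10 largest changes in each direction, list members by level or change, lineage genes, the 10 steadiest and the 10 most abundant genes and each library's extremes. Other list members and the genes near absent or present only in the shRNA libraries were chosen after their values were seen. Chromosome Y genes and XIST were left out of the named genes.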

Additional observations from a re-analysis of the deposited data

How the results depend on the processing

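No paired analysis was possible because the vector control libraries carry no replicate number in the labels. Counts are genes higher and lower. The planned comparison of 3 vector control with 3 DMSO libraries gave 121 and 355. A pseudocount of 0.1 gave 101 and 400. No filter, rescaling, median-ratio scaling, protein-coding genes alone and rescaling without HIST symbols (chosen after seeing the data) each gave 0 and 0. A mean of at least 5 TPM gave 68 and 237, limma without the trend 52 and 139, and array weights 1199 and 8170, in a fit that did not converge. Adding the 3 further DMSO libraries gave 236 and 2798, and 998 and 752 when also rescaled (chosen after seeing the data). Leaving out 1 library gave 0 to 385 higher and 0 to 6762 lower. The comparison of shRNA libraries and all its alternatives were chosen after seeing the data. It gave 1266 and 1404, and 385 and 6762 on deposited TPM, 784 and 1221 at a mean of at least 5 TPM, and 2132 and 2555 with the further DMSO libraries. Median-ratio scaling, protein-coding genes, no HIST symbols, a pseudocount of 0.1 and no trend stayed within 1.5 times. Leaving out 1 library gave 611 to 1364 higher and 603 to 1608 lower. The share of genes within 2-fold over 6 libraries was 6.27% on deposited TPM, 3.06% at a pseudocount of 0.1, 33.0% rescaled, 39.3% by median ratio, 3.72% at a mean of at least 5 TPM and 7.44 to 29.5% without 1 library, the highest without the 72 h shRNA library and 9.86% without the 48 h one. Genes at least 2-fold from DMSO were 5219 in the 48 h library (3292 rescaled, 3002 by median ratio, 4999 to 5675 without 1 library), 8545 in the 72 h library (3799, 3505, and 8149 to 8836) and 333 in the CRISPRi library (650 at a pseudocount of 0.1, 219 by median ratio, 189 at 5 TPM, and 209 to 695 without 1 library, the lowest without DMSO culture 1 and the highest without culture 3). MYOG turned to 0.68 with array weights and SOX8 to -1.22 on deposited TPM. Where the construction of an alternative does not show it, the cause was not tested. Exact zeros in TPM can be failed estimates, and single vector libraries bar a replicate check within a vector.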

Other observations

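Some genes stood furthest from the other 5 libraries in a single library, given here as rescaled TPM. In the 48 h shRNA library the cancer-testis genes MAGEA6 and MAGEA3 stood at 24.4 and 17.9 and were at most 0.218 in the other 5 libraries, and SERF1A stood at 45.5 and was listed at 0 in those 5, but at 13.9 and 12.8 in the DMSO libraries at 6 h. In the same library ECM1, an extracellular matrix protein, stood at 2.79 against 106 to 196 in the other 5, and IGFBP3, a carrier of insulin-like growth factors, at 0.0569 against 14.3 to 233. In the 72 h shRNA library MMP16, a membrane metalloprotease, stood at 71.0 against at most 2.71 in the other 5 and 2.77 to 7.51 in the 3 further DMSO libraries, and the histone gene HIST1H4L at 1320 against 19.6 in the 48 h library and 0 in the other 4. H3F3A, a replacement histone, was listed at 0 in the 72 h library and stood at 22.0 to 46.7 in the other 5, and TMSB4X, an actin-sequestering thymosin, stood at 107 against 735 to 2172.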
